A study of Mus musculus with 12 samples.

Results

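The miR-23, miR-27 and miR-24 family was examined in the small RNA of the mouse cerebral cortex through the 6 precursors that the deposited table lists under these names, mmu-mir-23a, mmu-mir-23b, mmu-mir-27a, mmu-mir-27b, mmu-mir-24-1 and mmu-mir-24-2, out of 589 precursors in all. The members were chosen by name, with earlier results of these data known. Female C57BL/6J mice with intact Tlr4 (WT) and mice lacking the Toll-like receptor 4 (TLR4-KO), a receptor of innate immunity that senses bacterial lipopolysaccharide, were 7 weeks old at the start. For 5 months they drank either water or 10% (v/v) ethanol. The 4 groups, named WT and TLR4-KO without ethanol and WT + EtOH and TLR4-KO + EtOH with it, had 3 libraries each, and every library was a pool of the cortices of 3 mice, so an SD is a spread between pools and not between mice. The paper names a commercial supplier for the WT mice and a university laboratory for the TLR4-KO mice. Genotype and origin of the mice thus cannot be told apart. The knockout is of the whole animal, and small RNA libraries hold no Tlr4 mRNA by which the genotype could be checked.

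In mammals these 6 precursors come from a pair of gene clusters, miR-23b/27b/24-1 and miR-23a/27a/24-2, each made as a joint primary transcript that is cut into hairpins and then into mature miRNAs of the 3′ arm (-3p) and the 5′ arm (-5p). A mature miRNA represses mRNAs chiefly through its seed, the bases 2 to 8 from its 5′ end. The clusters are known from endothelial cells and blood vessel growth, miR-27 also from lipid metabolism and miR-24 from the control of cell division and survival, and in the brain members have been described in astrocytes and neurons.

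The mature sequences show which members a read can tell apart. In the RefSeq sequences of GRCm38.p6, written 5′ to 3′ with the seed in capitals, the main 3′ arms of the family and the related miR-128 read as follows.
mmu-miR-23a-3p: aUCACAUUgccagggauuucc
mmu-miR-27a-3p: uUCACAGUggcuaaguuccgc
mmu-miR-27b-3p: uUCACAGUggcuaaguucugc
mmu-miR-24-3p: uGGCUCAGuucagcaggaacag
mmu-miR-128-3p: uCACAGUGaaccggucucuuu
mmu-miR-27a-3p and mmu-miR-27b-3p have the same seed, and their 21 bases differ at 1 place, C19U, counted from 1 at the 5′ end with the base of miR-27a first. miR-24-3p is the same sequence from both clusters, so a read of it does not say whether mmu-mir-24-1 or mmu-mir-24-2 gave rise to it. Of the mature sequences, the 5′ arms separate these hairpins.
mmu-miR-24-1-5p: gUGCCUACugagcugauaucagu
mmu-miR-24-2-5p: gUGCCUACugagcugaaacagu
They share a seed and, aligned from the 5′ end without gaps, differ at 5 places. mmu-miR-128-3p, a miRNA of neurons, holds 6 bases of the miR-27 seed shifted by 1 position. mmu-miR-23b-3p had no entry in the sequence table.

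On GRCm38, with the GENCODE M21 annotation, the miR-23b cluster lies on the plus strand of chromosome 13. It spans 792 bases with mmu-mir-23b at chr13:63300484-63300557, mmu-mir-27b at chr13:63300712-63300784 and mmu-mir-24-1 at chr13:63301208-63301275. All of it is inside the protein-coding gene 2010111I01Rik on the same strand and inside an intron of Fancc on the other strand. mmu-mir-23b is intronic, while mmu-mir-27b and mmu-mir-24-1 overlap exons of transcripts of 2010111I01Rik. The miR-23a cluster spans 404 bases on the plus strand of chromosome 8, with mmu-mir-23a at chr8:84208518-84208592, mmu-mir-27a at chr8:84208672-84208758 and mmu-mir-24-2 at chr8:84208815-84208921. No annotated gene other than the miRNAs overlaps mmu-mir-23a or mmu-mir-27a, and mmu-mir-24-2 overlaps an exon of the lincRNA Gm26532. The hairpin of mmu-mir-181c lies 29557 bases from mmu-mir-23a on the opposite strand, with mmu-mir-181d beyond it, both in an intron of Nanos3.

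The deposited unit is a normalized score on a compressed scale without whole numbers, in which each library has the same highest value and 0 is kept at 0. It is not stated to be per length and carries no read counts. The reads behind a value thus cannot be taken from it and no fold changes are given. The same scores recur across libraries and precursors. An example is 24.4757 for mmu-mir-27b in WT replicate 2 and for mmu-mir-24-2 in TLR4-KO + EtOH replicate 2. Whether the score follows the order of precursors within a library was not tested. A difference of scores is therefore not read as a change in amount. Of the 589 precursors 324 were above 0 in at least 1 library and 265 were at 0 in all 12. Between 216 and 270 precursors were above 0 in a library. The library with 216, TLR4-KO replicate 3, had a lowest score above 0 of 14.1. The libraries with 270, replicate 1 of WT and of WT + EtOH, had 1.25. This lowest score thus went with the number of precursors above 0 and is not taken as a detection limit in reads. The lowest score above 0 ran from 1.25 to 4.23 over the WT libraries and from 4.20 to 14.1 over the TLR4-KO libraries, and with ethanol from 1.25 to 11.3 (WT + EtOH) and from 4.08 to 7.29 (TLR4-KO + EtOH), so the range that a 0 stands for differs between libraries. The 8 precursors of the neuronal miR-124, miR-9 and miR-128 were all present, with a summed score of 440 to 496 over the 12 libraries. The sum joins opposite differences. In TLR4-KO minus WT, mmu-mir-9-1, mmu-mir-9-2 and mmu-mir-9-3 were at -6.05, -5.50 and -5.90 and mmu-mir-128-1 at 8.24, each without overlap. The miR-124 precursors and mmu-mir-128-2 were higher with overlap. None of the 8 had a limma adjusted p under 0.05 there. The liver miRNA mmu-mir-122 was at 0 throughout.

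Of the 6 members 3 had a score above 0 in at least 1 library, mmu-mir-24-2 in 12 libraries, mmu-mir-27b in 8 and mmu-mir-24-1 in 5. mmu-mir-23a, mmu-mir-23b and mmu-mir-27a were at 0 in all 12. The mean score over the 12 libraries was 31.9 ± 4.50 (SD) for mmu-mir-24-2, which ranked 150 of the 324 precursors above 0. It was 9.40 ± 8.47 for mmu-mir-27b (rank 221) and 3.72 ± 4.92 for mmu-mir-24-1 (rank 266). Each cluster was thus represented by its miR-24 hairpin, and the miR-23b cluster by mmu-mir-27b as well.

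**Figure D1:**
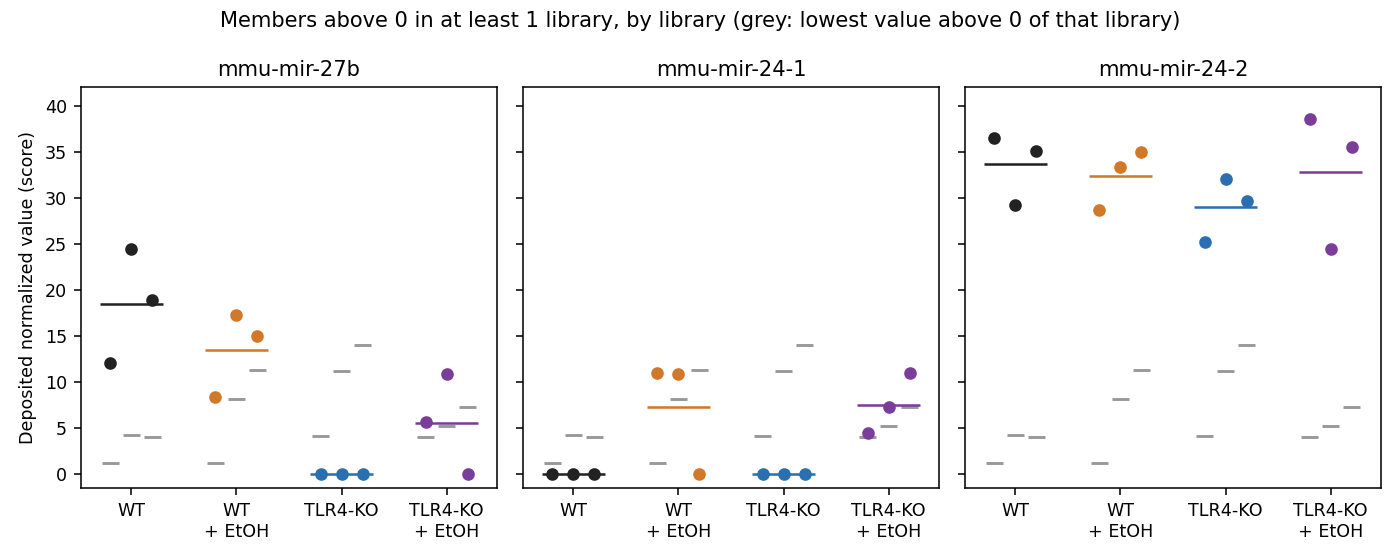
Deposited normalized score (vertical axis) of mmu-mir-27b, mmu-mir-24-1 and mmu-mir-24-2 in each of the 12 libraries, with 3 points per group in the order of their replicate numbers, a horizontal line at the group mean and a grey dash at the lowest score above 0 of that library. mmu-mir-27b is at 0 in 3 of 3 TLR4-KO libraries, mmu-mir-24-1 in 3 of 3 WT and 3 of 3 TLR4-KO libraries, and the 4 groups overlap for mmu-mir-24-2.

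The first question was which members differed between the genotypes without ethanol. mmu-mir-27b had a lower deposited score in TLR4-KO and passed the test, a call that rests on 0s and that 9 of 21 alternatives kept. Its score was 12.1, 24.5 and 19.0 in the WT libraries and 0, 0 and 0 over the TLR4-KO libraries, so the groups did not overlap. The difference, TLR4-KO minus WT, was -18.5 (SE 3.80, 95% confidence interval -27.2 to -9.80, limma, Benjamini-Hochberg adjusted p = 0.0435). The two-sided exact permutation test gave p = 0.1, the smallest value that 3 against 3 libraries allow. This was 1 of 6 members called, beside 15 of 589 precursors called in this comparison (2.55%). For not overlapping and lower in TLR4-KO the share of all precursors was 8.49%. Above 0 in 3 of 3 WT libraries and at 0 in 3 of 3 TLR4-KO libraries were 9 precursors (1.53%). Shares of all precursors, here and below, count 265 that were at 0 in every library and could neither separate nor be called. Of the other 5 members, mmu-mir-24-1 was at 0 in both groups and 3 were at 0 in all 12 libraries.

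The call on mmu-mir-27b did not hold in every setting. The adjusted p rose to between 0.0603 and 0.167 when any 1 of 8 libraries was left out, namely replicate 2 or 3 of WT, replicate 2 or 3 of WT + EtOH, any replicate of TLR4-KO, or replicate 1 of TLR4-KO + EtOH. In these 8 fits the difference was between -18.5 and -15.5. The 0 in TLR4-KO also has a range. TLR4-KO replicates 1, 2 and 3 had lowest scores above 0 of 4.20, 11.3 and 14.1, and the score of WT replicate 1 (12.1) lies below the last of these. With each 0 set to the lowest score of its library, the mean was 9.85 in TLR4-KO against 18.5 in WT. The difference shrank to -8.65 (limma, adjusted p = 0.139). This setting was chosen after seeing the data and was fitted to the 324 precursors above 0 in at least 1 library. Fitted to the same 324 with the 0s kept, mmu-mir-27b had an adjusted p of 0.01685 (limma). A separate table of normalized reads published with the study lists mmu-mir-27b above 0 in TLR4-KO replicate 1, higher there than in any WT library. Its values entered no test here, and those of TLR4-KO replicates 2 and 3 are not described. The 0 of the deposited score in TLR4-KO replicate 1 thus cannot be read as an absence of reads.

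**Figure D2:**
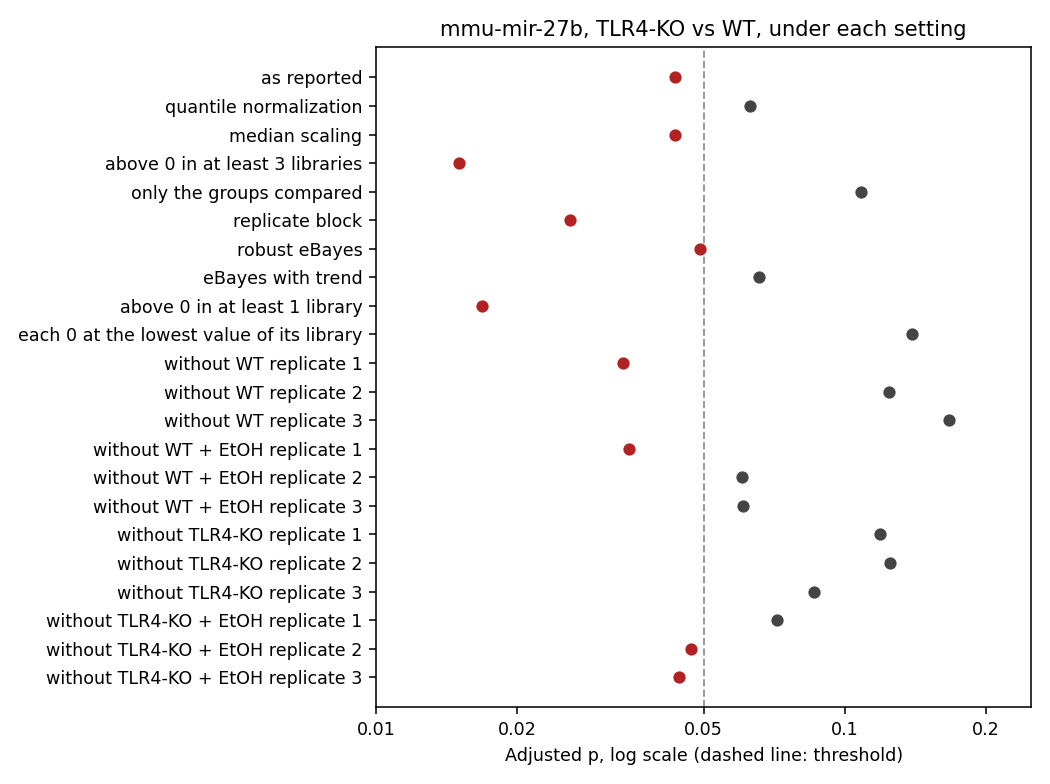
Adjusted p of mmu-mir-27b for TLR4-KO against WT (horizontal axis, log scale) in the reported fit and under each of 21 alternatives (vertical axis), red where it is under the threshold of 0.05, which the dashed line marks. The values run from 0.0150 to 0.167, and 9 of the 21 alternatives keep the call.

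Of the 3 miRNAs of red blood cells, mmu-mir-451a also fell in TLR4-KO (48.9 ± 2.28, SD, n = 3, in WT and 31.3 ± 4.32 in TLR4-KO, limma adjusted p = 0.00948). Its difference from WT was also called in WT + EtOH (-14.6, limma adjusted p = 0.0346) and in TLR4-KO + EtOH (-20.9, limma adjusted p = 0.00364). In TLR4-KO against WT, mmu-mir-144 (a difference of -4.13, limma adjusted p = 1) and mmu-mir-486a (0.486, limma adjusted p = 1) were not called. The summed score of the 3, all above 0 in at least 1 library, was 151 to 163 in WT and 131 to 142 in TLR4-KO, and with ethanol 142 to 150.0 in WT + EtOH and 127 to 138 in TLR4-KO + EtOH, and its part in the result was not tested. The 5 vascular miRNAs (mmu-mir-126a, mmu-mir-126b, mmu-mir-143, mmu-mir-145a and mmu-mir-145b, the last at 0 throughout) summed to 249 to 261 in WT and 239 to 257 in TLR4-KO, and with ethanol to 240.4 to 249 in WT + EtOH and 243 to 256 in TLR4-KO + EtOH. Of the 3 leukocyte miRNAs, mmu-mir-223 was at 0 throughout, mmu-mir-150 rose in TLR4-KO by 9.28 (SE 1.43, limma adjusted p = 0.00958), and mmu-mir-142a was at -11.8 without overlap (SE 6.22, limma adjusted p = 0.532). A higher score of mmu-mir-150 was also called in WT + EtOH against WT (7.41, SE 1.43, limma adjusted p = 0.0444). The leukocyte sum was 112 to 115 in WT and 109 to 115 in TLR4-KO, and with ethanol 105 to 129.6 in WT + EtOH and 105 to 114 in TLR4-KO + EtOH. The part of the vascular and leukocyte lists in the result was not tested. In bulk tissue, fewer cells of a type and less RNA per cell cannot be told apart.

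With ethanol, mmu-mir-27b was listed above 0 in both genotypes. In WT + EtOH the scores were 8.39, 17.2 and 15.0 and overlapped WT. The difference from WT was -4.95 (SE 3.80, interval -13.6 to 3.75, limma adjusted p = 0.924), and it was -8.17 without WT replicate 1 and -1.96 without WT replicate 2. In TLR4-KO + EtOH the scores were 5.70, 10.9 and 0, the last also the score of all TLR4-KO libraries. The difference from TLR4-KO was 5.54 (SE 3.80, interval -3.16 to 14.2, limma adjusted p = 1), and it was -1.88 with each 0 at the lowest score of its library. It was 2.85 without TLR4-KO + EtOH replicate 2 and 8.31 without TLR4-KO + EtOH replicate 3.

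The change with ethanol in TLR4-KO less that in WT was 10.5 for mmu-mir-27b (SE 5.37, interval -1.81 to 22.8, limma adjusted p = 0.557) and 3.07 with each 0 at the lowest score of its library, so the effects of ethanol were not shown to differ between genotypes. Against WT + EtOH, TLR4-KO + EtOH was at -8.01 (SE 3.80, limma adjusted p = 1) with overlapping scores. This difference was -10.7 without TLR4-KO + EtOH replicate 2 and -5.24 without TLR4-KO + EtOH replicate 3. Against WT, TLR4-KO + EtOH was at -12.96 (SE 3.80, interval -21.7 to -4.26, limma adjusted p = 0.190). Those groups did not overlap, as held for 8.49% of all precursors in that direction. The group means, from high to low, were 18.5 ± 6.22 (WT, SD, n = 3), 13.6 ± 4.61 (WT + EtOH), 5.54 ± 5.46 (TLR4-KO + EtOH) and 0 (TLR4-KO). Each neighbour in this order overlapped with the next.

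**Figure D3:**
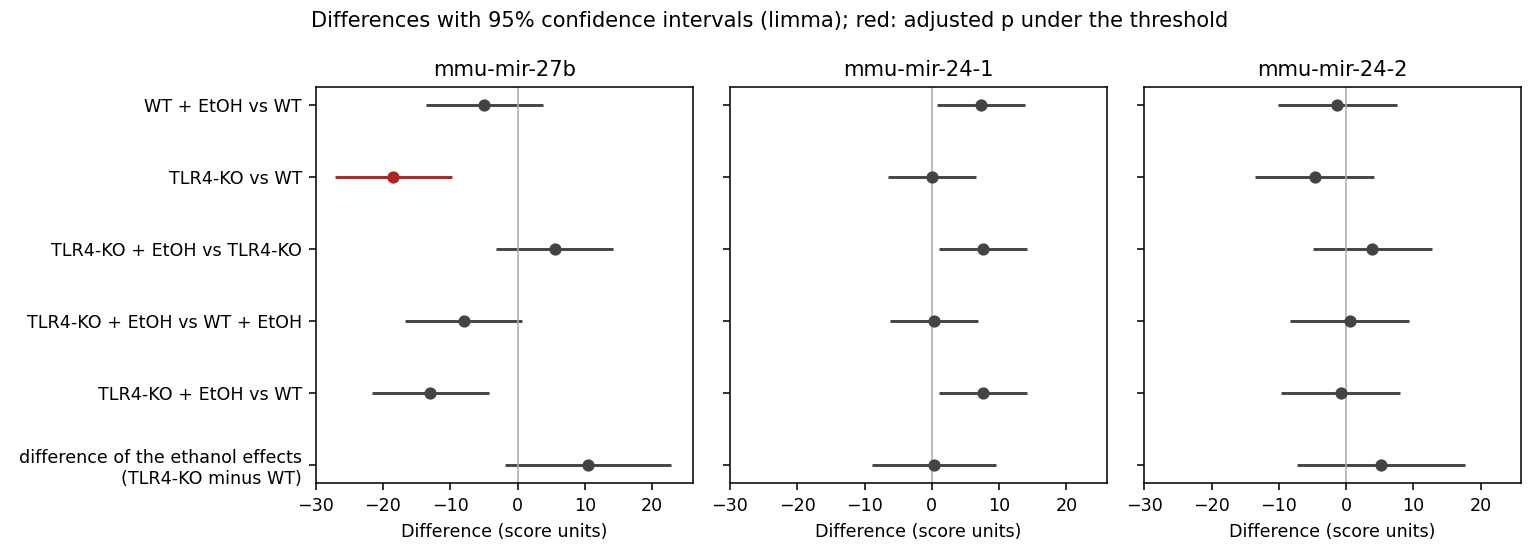
Differences of the deposited score (horizontal axis, first group minus second) with 95% confidence intervals from limma, for mmu-mir-27b, mmu-mir-24-1 and mmu-mir-24-2 in 5 comparisons of groups and the difference of the ethanol effects (vertical axis). The difference of mmu-mir-27b between TLR4-KO and WT, -18.5, is the one drawn in red for an adjusted p under the threshold.

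mmu-mir-24-1 was listed above 0 in libraries of ethanol-treated mice alone, and no comparison passed the test. Its scores were 0, 0 and 0 in WT and 10.95, 10.9 and 0 in WT + EtOH. They were 0, 0 and 0 in TLR4-KO and 4.54, 7.27 and 10.95 in TLR4-KO + EtOH. WT + EtOH overlapped WT through its replicate 3, whereas TLR4-KO + EtOH overlapped neither group without ethanol. The difference with ethanol was 7.28 in WT (SE 2.84, interval 0.785 to 13.8, limma adjusted p = 0.297) and 7.59 in TLR4-KO (SE 2.84, interval 1.09 to 14.1, limma adjusted p = 0.569). For TLR4-KO + EtOH against WT it was also 7.59 (limma adjusted p = 0.334). Groups that did not overlap and were higher in TLR4-KO + EtOH were found for 3.90% of all precursors against TLR4-KO and for 7.81% against WT.

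The scores of mmu-mir-24-1 are low against the floor of several libraries that list it at 0. WT + EtOH replicate 3, TLR4-KO replicate 2 and TLR4-KO replicate 3 had lowest scores above 0 of 11.3, 11.3 and 14.1, all over the highest score of mmu-mir-24-1, 10.95. The separate table of normalized reads also lists mmu-mir-24-1 above 0 in TLR4-KO replicate 1. Its values in the other libraries are not described here and entered no test. With each 0 at the lowest score of its library, the difference with ethanol in TLR4-KO turned to -2.26 and that in WT was 7.88. Without WT + EtOH replicate 3, the difference passed the test in WT + EtOH against WT (10.9, limma adjusted p = 0.0230) and in TLR4-KO + EtOH against WT (7.59, limma adjusted p = 0.0391). The difference of the ethanol effects was 0.303 (SE 4.01, limma adjusted p = 1). It turned to -10.1 with each 0 at the lowest score of its library and to -0.909 after quantile normalization.

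mmu-mir-24-2 was the member above 0 in every library, with scores of 24.5 to 38.6. The WT libraries had 36.5, 29.2 and 35.1, and the WT + EtOH libraries 28.7, 33.4 and 34.9. The TLR4-KO libraries had 25.2, 32.1 and 29.6, and the TLR4-KO + EtOH libraries 38.6, 24.5 and 35.5. All groups overlapped, with means of 33.6 ± 3.89 (SD, n = 3), 32.3 ± 3.24, 29.0 ± 3.49 and 32.8 ± 7.41 in the same order. The difference from WT was -4.65 in TLR4-KO (SE 3.86, interval -13.5 to 4.19, limma adjusted p = 0.908). It was -2.77 without TLR4-KO replicate 1 and -6.86 without WT replicate 2. WT + EtOH was at -1.29 from WT (interval -10.1 to 7.55, and -3.50 to 0.524 with 1 library left out). TLR4-KO + EtOH was at -0.785 from WT (interval -9.62 to 8.05, and -3.65 to 3.40 with 1 library left out). TLR4-KO + EtOH was at 3.86 from TLR4-KO (interval -4.97 to 12.7, and 0.999 or 8.05 without its replicate 1 or 2). From WT + EtOH it was at 0.504 (interval -8.33 to 9.34, and -2.36 or 4.69 without the same replicates). The difference of the ethanol effects was 5.15 (interval -7.34 to 17.6, and 2.29 or 9.34 without the same replicates), with a limma adjusted p of 1 for these last 5.

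Thus 1 of the 6 members was called in TLR4-KO against WT and 0 of 6 in the other comparisons by limma with adjustment over 589 precursors. At an unadjusted p under 0.05 there was 1 member in WT + EtOH against WT, 1 in TLR4-KO + EtOH against TLR4-KO, 0 in TLR4-KO + EtOH against WT + EtOH, 2 in TLR4-KO + EtOH against WT and 0 for the difference of the ethanol effects. At the same unadjusted threshold stood 12.6%, 6.96%, 4.58%, 10.7% and 12.6% of all 589 precursors. The share of all precursors called at an adjusted p under 0.05 was 1.70%, 0.340%, 0.509%, 1.87% and 1.19% in these comparisons.

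The 2 copies of miR-24 were far apart although they make the same 3′ arm. mmu-mir-24-2 was above mmu-mir-24-1 in 12 of 12 libraries, by 17.2 to 36.5 (mean 28.2 ± 6.75, SD). Of 22 precursors with exactly 2 numbered copies and a score above 0, this gap was the second in size, after the 38.1 between mmu-mir-128-1 and mmu-mir-128-2, and the median gap was 3.13. The hairpins, with the bases of miR-24-3p in capitals, read as follows.
mmu-mir-24-1: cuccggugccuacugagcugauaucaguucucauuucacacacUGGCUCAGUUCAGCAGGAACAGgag
mmu-mir-24-2: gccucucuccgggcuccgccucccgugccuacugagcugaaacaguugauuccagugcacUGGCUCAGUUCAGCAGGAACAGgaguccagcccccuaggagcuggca
How the authors assigned a read that fits both hairpins is not given in the sources used here.

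A further pair of precursors lies on the minus strand of the same places. mmu-mir-3074-1 at chr13:63301199-63301283 covers all 68 bases of mmu-mir-24-1, and mmu-mir-3074-2 at chr8:84208825-84208907 lies with its 83 bases inside mmu-mir-24-2. The first 20 bases of mmu-miR-3074-5p, in capitals, are complementary to miR-24-3p.
mmu-miR-3074-5p: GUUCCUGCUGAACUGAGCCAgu
mmu-mir-3074-1 had scores of 62.3 to 72.7 (mean 68.4 ± 3.10) and mmu-mir-3074-2 of 60.7 to 68.7 (mean 65.0 ± 2.40), ranks 51 and 57 of 324. In 12 of 12 libraries each was above the miR-24 hairpin on the other strand, by 52.5 to 72.7 at chromosome 13 and by 24.9 to 41.1 at chromosome 8. The copies of mir-3074 were 3.38 ± 1.06 apart, with a Pearson r of 0.957 over the 12 libraries. Pearson r was 0.450 for mmu-mir-3074-2 with mmu-mir-24-2 and -0.209 for mmu-mir-3074-1 with mmu-mir-24-1, which was above 0 in 5 libraries. The sources do not state whether reads were counted by strand, and without strand the reads of miR-24 and miR-3074 cannot be told apart, so the level of miR-24 in these libraries is uncertain.

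**Figure D4:**
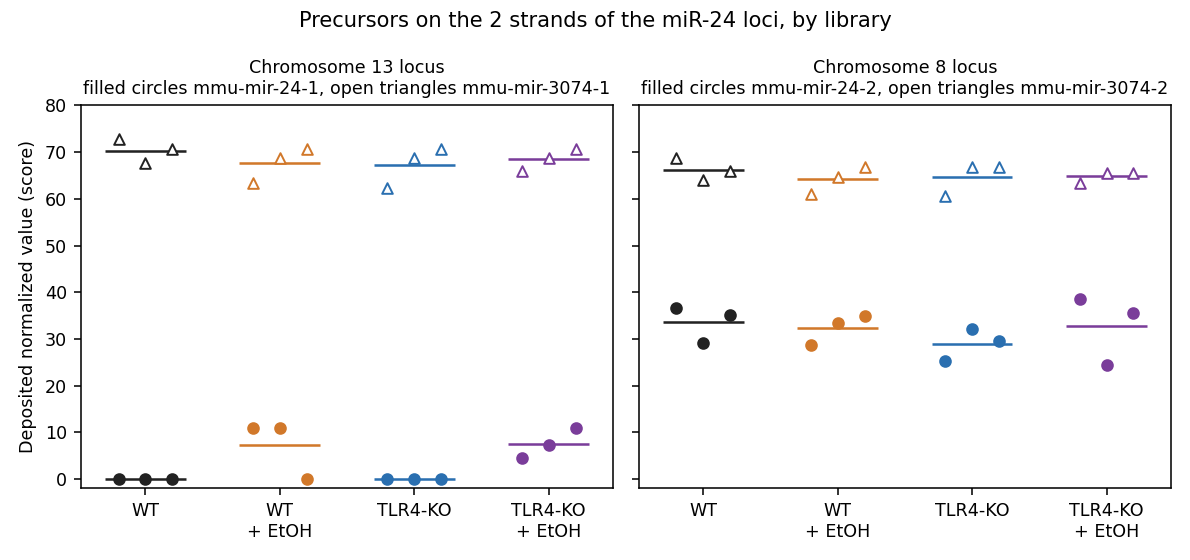
Deposited normalized score (vertical axis) by library and group of the precursors on the plus strand (filled circles, mmu-mir-24-1 and mmu-mir-24-2) and on the minus strand (open triangles, mmu-mir-3074-1 and mmu-mir-3074-2) of the miR-24 loci, with lines at the group means. The minus-strand precursors lie between 60.7 and 72.7 in all libraries and the plus-strand ones at 38.6 or less.

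Neither copy of mir-3074 was called in any comparison. mmu-mir-3074-1 had group means of 70.3 ± 2.53 (SD) in WT and 67.2 ± 4.32 in TLR4-KO, and with ethanol 67.6 ± 3.69 in WT + EtOH and 68.4 ± 2.30 in TLR4-KO + EtOH, and the difference of TLR4-KO from WT was -3.12 (SE 2.66, limma adjusted p = 0.927). mmu-mir-3074-2 had 66.2 ± 2.38, 64.8 ± 3.54, 64.1 ± 2.93 and 64.9 ± 1.23 in the same order, and its difference was -1.44 (SE 2.13, limma adjusted p = 1). The groups of both overlapped throughout.

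The next hairpins along chromosome 8, of the miR-181 family, were abundant, and neither was called. mmu-mir-181c had 86.4 ± 0.480 (SD, n = 3) in WT and 90.9 ± 0.870 in TLR4-KO, and with ethanol 90.1 ± 2.12 in WT + EtOH and 91.2 ± 0.786 in TLR4-KO + EtOH. Its difference from WT was 4.51 in TLR4-KO (SE 0.990, limma adjusted p = 0.0569) and 4.86 in TLR4-KO + EtOH (limma adjusted p = 0.0521). mmu-mir-181d had 53.4 ± 1.20, 48.2 ± 3.10, 52.5 ± 2.69 and 56.5 ± 4.76 in the same order of groups, with a difference from WT of -5.27 in TLR4-KO (SE 2.56, limma adjusted p = 0.480). Counting mir-3074, 0 of 4 neighbours were called by limma in each of the 6 comparisons, with between 0 and 2 at an unadjusted p under 0.05, beside 27 to 74 of all 589 precursors.

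Among miRNAs that share the miR-27 seed in part, mmu-mir-128-1 had group means on the side opposite to mmu-mir-27b. Its score was 58.3 to 65.6 in WT and 67.7 to 72.7 over the other groups, without overlap. The difference from WT was 8.24 in TLR4-KO (SE 1.92, limma adjusted p = 0.0676) and 9.29 in WT + EtOH (SE 1.92, limma adjusted p = 0.0563). mmu-mir-128-2, which makes the same mature miR-128-3p, had 25.7 to 28.5 in WT and 25.2 to 34.9 over the other groups, and its difference from WT was 2.93 in TLR4-KO (SE 2.52, limma adjusted p = 0.929) and, without overlap, 4.01 in WT + EtOH (SE 2.52, limma adjusted p = 0.739). The 5′ arm of mmu-mir-27b shares 6 seed bases, shifted by 1, with mmu-miR-21a-5p, whose precursor had a mean score of 43.9 over the 12 libraries. For mmu-mir-21a the difference from WT was -9.35 in TLR4-KO with overlapping groups (SE 4.05, limma adjusted p = 0.396) and -8.21 in WT + EtOH without overlap (SE 4.05, limma adjusted p = 0.518).

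Of the 5 vascular miRNAs, which are abundant in endothelium and smooth muscle, 0 were called in any of the 6 comparisons by limma. At an unadjusted p under 0.05 there were 3 in WT + EtOH against WT, 2 in TLR4-KO against WT and 0 to 2 in the others, beside 74 of all 589 precursors in WT + EtOH against WT and 72 (12.2%) in TLR4-KO against WT. The endothelial mmu-mir-126a had 61.2 ± 1.68 (SD, n = 3) in WT and 55.8 ± 3.28 in TLR4-KO, a difference of -5.37 (SE 2.54, limma adjusted p = 0.463). The smooth muscle mmu-mir-143 had 84.0 ± 0.987 and 79.5 ± 2.38, a difference of -4.53 (SE 1.41, limma adjusted p = 0.169). mmu-mir-145a, its neighbour in the genome, stood the other way with 55.7 ± 3.04 and 62.6 ± 0.785, a difference of 6.91 (SE 2.27, limma adjusted p = 0.192).

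The precursors whose scores followed a member most closely were looked up among the 248 above 0 in at least 6 libraries, as a description over 12 libraries that share their normalization and groups. For mmu-mir-27b they were mmu-mir-872 (Pearson r = 0.874, Spearman rho = 0.947), mmu-mir-28a (0.749 and 0.733) and mmu-mir-3071 (0.729 and 0.651). mmu-mir-872 had the same order of groups as mmu-mir-27b, with mean scores of 34.7 ± 3.09 (WT), 26.9 ± 4.22 (WT + EtOH), 21.5 ± 3.61 (TLR4-KO + EtOH) and 10.8 ± 6.41 (TLR4-KO). For mmu-mir-24-2 they were mmu-mir-34c (Pearson r = 0.797, Spearman rho = 0.818), mmu-mir-488 (0.747 and 0.748) and mmu-mir-127 (0.658 and 0.547). None of these 6 lies in either cluster.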

How the data were processed

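Small RNA libraries of 12 cortex pools were processed by the authors. The submitters' processing notes name FastQC 0.11.6, Cutadapt, Bowtie2 2.2.5, TopHat and GRCm38, and the study's methods name TMM normalization and edgeR. The miRBase release, the strand setting and the handling of reads with several loci are not given in the sources used here. The authors deposited 1 normalized score per precursor and library, used as it stands and not as counts. How this score was derived, and its relation to the TMM step, is not given there. The table holds no depth, and the read numbers the study gives elsewhere are not used here. Samples were grouped by their titles.

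limma 3.58.1 in R 4.3.3 was fitted to all 589 precursors and 12 libraries with 1 mean per group and no covariate, with default eBayes (prior df 0.308, total df 8.31), 6 contrasts and Benjamini-Hochberg adjustment over 589 at a threshold of 0.05. The code was tested on simulated data. Two-sided exact permutation tests used scipy 1.17.1 in Python 3.11.15, and figures matplotlib 3.10.9. Positions came from GENCODE M21 and sequences from RefSeq, where all 6 members had a hairpin. Opposite-strand pairs were found among the 545 precursors matched to GENCODE.

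The named precursors were the members, their genomic neighbours, seed relatives, the vascular list, cell type markers, copies and the 3 precursors most like each member above 0 in at least 6 libraries. Members and lists were chosen with earlier results of these data known, and the look at opposite strands was chosen after values were seen. Alternatives were other scalings, filters and variance models, the groups compared alone, a replicate block and each library left out. A further 2 settings were added after seeing the data. They were only precursors above 0 in at least 1 library, and each 0 at the lowest score of its library. Both of these were fitted to and adjusted over the 324 precursors above 0.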

Additional observations from a re-analysis of the deposited data

How the results depend on the processing

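The 17 differences of members that were not 0 as reported were recomputed under 21 alternatives, 12 of which leave out 1 library, and under 20 for the difference of the ethanol effects, which needs all groups. Of 354 recomputed differences, 323 kept their direction and side of the threshold and 17 turned in direction. In TLR4-KO against WT, where mmu-mir-27b was called, 0 members were called after quantile normalization (adjusted p = 0.0629), with the groups compared alone (0.109), with an eBayes trend (0.0656) or with each 0 at the lowest score of its library (0.139), and between 0 and 1 when 1 library was left out. For WT + EtOH against WT and TLR4-KO + EtOH against WT the number of members called was likewise between 0 and 1 when 1 library was left out, the 1 being mmu-mir-24-1 without WT + EtOH replicate 3. The cause was not tested.

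Among differences that turned, with each 0 at the lowest score of its library mmu-mir-27b was at -1.88 and mmu-mir-24-1 at -2.26 in TLR4-KO + EtOH against TLR4-KO, and mmu-mir-24-1 was at -3.48 in TLR4-KO + EtOH against WT + EtOH and at -10.1 for the difference of the ethanol effects. After quantile normalization mmu-mir-24-1 was at -0.909 in each of the last 2. Leaving out 1 library gave -3.34 to 2.14 for mmu-mir-24-1 in these same 2, and for mmu-mir-24-2 -3.50 to 0.524 in WT + EtOH against WT, -2.36 to 4.69 in TLR4-KO + EtOH against WT + EtOH and -3.65 to 3.40 in TLR4-KO + EtOH against WT.

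Precursors called of all tested ranged over the alternatives from 11 to 35 in TLR4-KO against WT (15 as reported), from 4 to 22 in WT + EtOH against WT (10) and from 6 to 19 in TLR4-KO + EtOH against WT (11). For TLR4-KO + EtOH against TLR4-KO the range was 0 to 4 (2), for TLR4-KO + EtOH against WT + EtOH 0 to 3 (3), and for the difference of the ethanol effects 2 to 15 (7). Samples with the same replicate number in different groups correlated between -0.0776 and 0.240 in their deviations from the group means (median 0.0577). For different replicate numbers the range was -0.268 to 0.259 (median -0.0367). These ranges overlap, so the numbers were not taken to pair the libraries. Detection did go with the number. Replicate 1 had the most precursors above 0 of its group, 270 for each WT group and 262 for each knockout group. Replicate 3 never had more than replicate 2 of its group. The part of the replicate number in the 0s was not tested. With the replicate number as a block, 1 member was called in TLR4-KO against WT (mmu-mir-27b, limma adjusted p = 0.0259) and no member in the other 5 comparisons, while the count over all precursors went to 24 and to 19 in TLR4-KO against WT and TLR4-KO + EtOH against WT and to 3 for the difference of the ethanol effects. The deposited scores carry no counts, so the precision of the low scores of mmu-mir-27b and mmu-mir-24-1 cannot be given from them.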

Other observations

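The table holds 14 pairs of precursors on opposite strands of the same place, 12 of them with both above 0 in at least 1 library. The pairs with the widest gap between mean scores were mmu-mir-24-1 with mmu-mir-3074-1 (64.7) and mmu-mir-24-2 with mmu-mir-3074-2 (33.1), and the other 12 were 0 to 25.2 apart. mmu-mir-451a and mmu-mir-451b had the same score in every library, and mmu-mir-126a and mmu-mir-126b, also on opposite strands, had mean scores of 56.8 and 51.8. These pairs were looked at after the values had been seen.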
